A study of Mus musculus with 12 samples.

Results

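SAGA is a large nuclear coactivator complex that is brought to genes by transcription factors and modifies histones there. Its acetyltransferase module acetylates histone tails, its deubiquitinase module removes ubiquitin from histones, and a core of structural subunits holds the modules together. Part of the acetyltransferase module is shared with a second complex, ATAC. The data described here are the insertions of a tagging cassette at 10 mouse genes for SAGA subunits, out of 20409 genes listed for the screens. The members were taken by gene name. They comprised 6 genes of the acetyltransferase module (Kat2a, Kat2b, Tada2a, Tada2b, Tada3 and Sgf29) and 4 core genes (Tada1, Supt7l, Taf5l and Taf6l).

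The insertions came from ORFtag screens in mouse embryonic stem cells of 1 diploid background, derived from the haploid line AN3-12. In ORFtag a retroviral cassette lands at random in the genome, and its promoter drives a transcript in which a protein tag is spliced to the next acceptor downstream, so that the endogenous protein is made with the tag near its N terminus. The activator and repressor screens used the TetR tag, which binds TetO sites next to a GFP reporter, each in a reporter line of its own, which was clonal for the activator screen. The activator screen collected cells whose GFP had gone up, and the repressor screen cells whose GFP had gone down. The screen for posttranscriptional gene regulators (PTGR) used the λN tag, which binds boxB sites in the reporter mRNA, in a clonal line with CreERT2. There, cells with low GFP were sorted repeatedly, the boxB sites were then removed by Cre recombinase after 4-OHT treatment, and cells with higher GFP were collected. All cells, unsorted ones included, carried the reporter and were selected with G418 for the cassette. Each screen had 2 sorted and 2 unsorted libraries, 12 in all. A tagged subunit would be present beside any untagged protein that the cell makes. Only insertion positions were measured, so the cell type could not be checked against marker genes. Neither the presence nor the level of the fusion proteins is known from these data.

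The sorted libraries held between 14705 and 60980 sense insertions within 200 kb of the assigned exon, and the unsorted libraries between 54088 and 233799. The 6 unsorted libraries together, called the background, held 1022126. Sorted replicates of the activator screen shared little (2.21% of the positions of replicate 1 were also in replicate 2), those of the repressor screen shared more (18.8%), and those of the PTGR screen 0.648%. Of the positions of replicate 2, the shares also in replicate 1 were 2.61%, 27.5% and 0.67%. Sorted libraries also shared positions with unsorted ones of their screen, at most 19.5% (PTGR, replicate 1 of both). The methods give a transduction rate for each replicate, so replicates were taken as separate transductions of 1 cell line per screen. How the repressor sorted libraries came to share positions was not tested.

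Every insertion is described by the exon it was assigned to, the closest one downstream, and the tag would join the protein at the splice acceptor of that exon. No transcript was measured in these libraries, so the splice itself was not seen. The acceptors below carry the insertions on which the results turn. They were read from the GRCm38 (mm10) assembly on the strand of the gene, with the last 20 intron bases in lower case and the first 10 exon bases in capitals. The first 4 are the acceptors of Tada3 with at least 3 sorted insertions in the activator or repressor screen, the next 2 are those most used at the members with the most background insertions, and the last 3 belong to genes of SAGA or ATAC outside the 10 members.
Tada3 exon 2, outer acceptor (chr6:113376936-113376965, minus strand): cctcttccttaatgctgcagATTCCAGACT
Tada3 exon 2, inner acceptor (chr6:113376055-113376084, minus strand): tctcccctctaattttacagGGTCCCACCT
Tada3 exon 3 (chr6:113375250-113375279, minus strand): gttgtctttgtgtgtttcagATCCTTACTG
Tada3 exon 9 (chr6:113367171-113367200, minus strand): atgacatacggtccccatagGCTGGCAAAG
Kat2b exon 2 (chr17:53610844-53610873, plus strand): ctctttcttttcacttctagGCAGAGGAGT
Taf5l exon 2 (chr8:124009824-124009853, minus strand): gctttctgtgttcttcttagGTCATGAAAC
Atxn7 exon 3 (chr14:14013053-14013082, plus strand): ccctttttgttacattgtagGAGCGGAAAG
Atxn7l3 exon 2 (chr11:102295050-102295079, minus strand): ccccacctccatgtgtgcagCCGTGTTGCC
Yeats2 exon 13 (chr16:20193139-20193168, plus strand): agtaatgtttttacatacagCAGGAGGAGT
All 9 introns end in AG, as did 99.6% of the 54371 acceptors to which any insertion of the series was assigned. The 17 bases before the last 3 of the intron were 94.1% pyrimidine at Kat2b and 52.9% at Tada3 exon 9, against a median of 76.5% over all those acceptors. Exon numbers are those of the insertion lists. At Tada3, 2 different exons carry the number 2, in different transcripts. The outer acceptor opens an exon 938 to 991 bp from the gene start, and the inner acceptor an exon at 1819 to 2043 bp.

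Before any sorting, the cassette reached all 10 genes, but very unevenly. Kat2b had 559 background insertions, Taf5l 250, Tada3 172, Supt7l 68, Sgf29 34, Tada2a 31, Kat2a 17, Taf6l 7, Tada1 4 and Tada2b 1. The median over the members was 32.5, against 15 over all 20409 genes, and 7 of the 10 reached or passed that value. Kat2b, which spans 105860 bp on chromosome 17, stood at percentile 99.5 of all genes, and Tada2b at percentile 13.5. At Tada1, Tada2b and Taf6l, under 10 background insertions were available for any comparison with sorted cells.

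The assigned exon also sets which part of a protein would carry the tag. At Supt7l and Sgf29 all 68 and all 34 background insertions led into an exon that holds or precedes the start codon in GENCODE vM21 (for each acceptor, the transcript with the longest coding sequence), so that the whole coding sequence would follow the tag. At Taf5l this was so for 244 of 250, at Tada3 for 118 of 172, at Tada2a for 16 of 31 and at Taf6l for 3 of 7. At the other 4 genes it was so for none. In Kat2a, Kat2b, Tada1 and Tada2b the first exon holds the start codon, and since the cassette cannot join a first exon, the nearest fusion leaves out the residues encoded there. These were 108 of 830 residues at Kat2a, 83 of 813 at Kat2b, 24 of 335 at Tada1 and 90 of 420 at Tada2b. By this assignment, fusions of both acetyltransferases of the complex would lack their N-terminal residues. Reading frame, for which the cassette was supplied in 3 versions, was not evaluated.

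**Figure D1:**
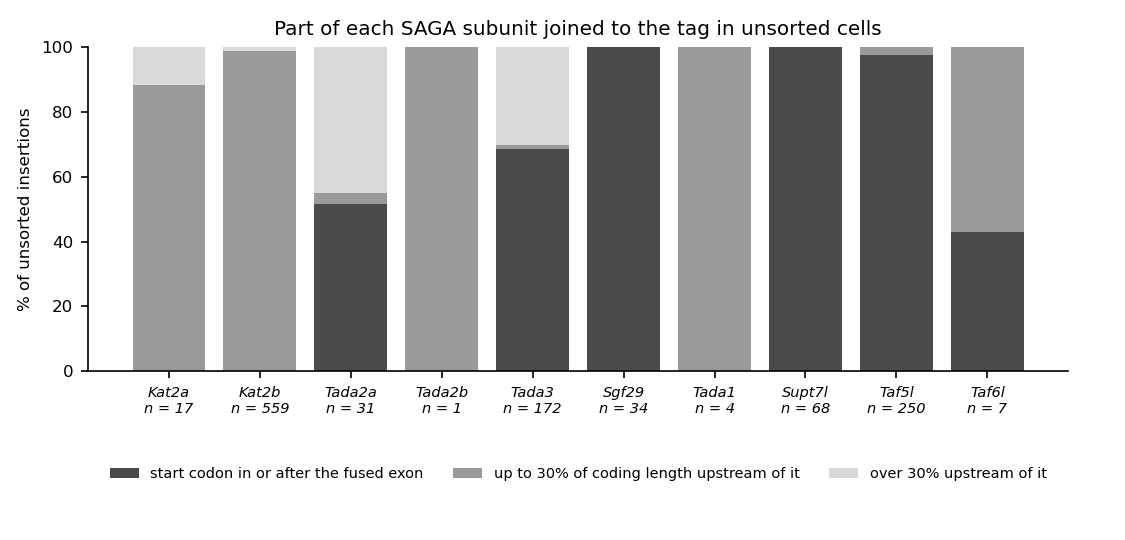
Each bar gives the background insertions at 1 gene (n below the name), in percent, by the part of the coding sequence that lies upstream of the exon joined to the tag: none of it, up to 30%, or over 30%. Kat2a, Kat2b, Tada1 and Tada2b have no insertion that leaves the coding sequence whole, and 30.2% of the insertions at Tada3 leave out over 30% of it.

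Of the 10 members, 1 was called in the activator screen, Tada3, and the same gene alone was called in the repressor screen. None was called in the PTGR screen. For a call, a one-sided Fisher's exact test of the summed sorted libraries against the background had to give an adjusted p below 0.001, with a log2 odds ratio of 1 or more. It was made over the genes with at least 3 sorted insertions, which were 2 of the members for the activator screen (Tada3 and Kat2b), 4 for the repressor and 6 for the PTGR screen. Over all genes tested, the activator screen called 4.64% of 2842, the repressor screen 8.18% of 2346 and the PTGR screen 0.666% of 9303. The median log2 odds ratio of the tested members was 0.09, -0.06 and 0.22 in the 3 screens, against -0.14, -0.39 and 0.14 over all tested genes. The 3 screens share the background libraries, so their values are not independent. With 2 to 6 members tested, these medians describe single genes more than a group. Both medians leave out genes with fewer than 3 sorted insertions, so they lean towards genes with more sorted insertions and do not describe all 10 members.

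**Figure D2:**
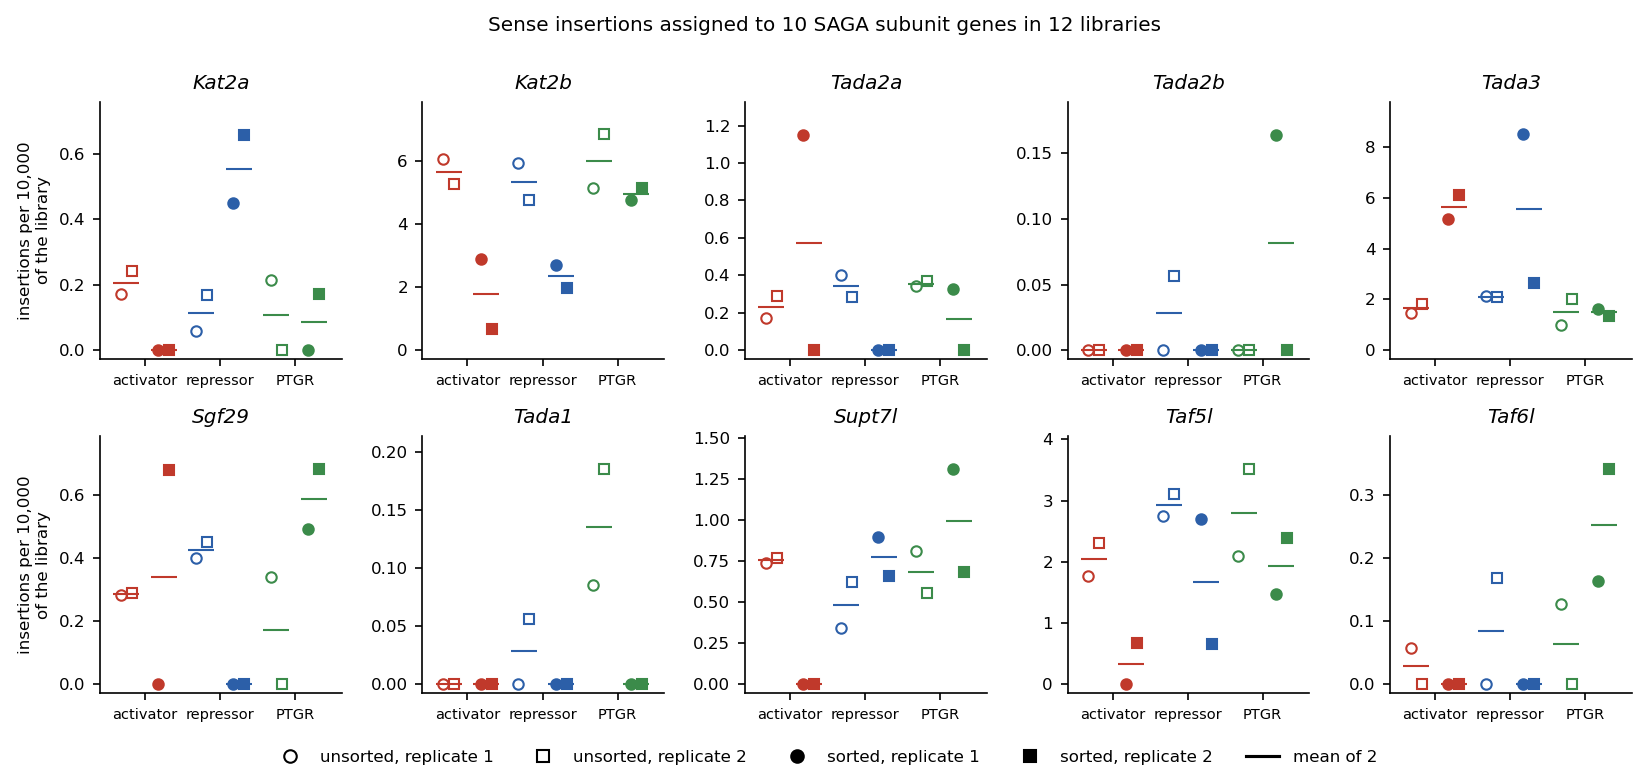
Sense insertions per 10000 insertions of the library are plotted for each of the 10 genes in the 12 libraries, with open symbols for unsorted and filled symbols for sorted cells, and a line at the mean of 2 replicates. The vertical scale differs between genes. At Tada3 both activator sorted libraries, at 5.17 and 6.12, lie above all 6 unsorted libraries, while at Kat2b they lie below all of them.

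Tada3 encodes the adaptor that links the acetyltransferase to its partners in both SAGA and ATAC. The gene lies on chromosome 6 (positions 113366025 to 113377883, minus strand, GRCm38). In the activator screen it had 9 insertions in each sorted library, 5.17 and 6.12 per 10000. The unsorted libraries of that screen had 26 and 38 insertions, 1.48 and 1.83 per 10000, and over all 6 unsorted libraries the rate ran from 0.984 to 2.12. Sorted and unsorted libraries thus did not overlap. The sorted mean was 5.65 ± 0.67 per 10000 and the unsorted mean of the same screen 1.66 ± 0.246 (SD, n = 2 each).

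The 18 sorted insertions compare with 5.40 expected from the share of the background. This gave a log2 odds ratio of 1.74 ± 0.36 (SE, counting error), and Fisher's exact test an adjusted p of 0.00054. This was as few as could have been called at this background, since 18 is also the smallest count that would have passed. Against the 2 unsorted libraries of the activator screen alone the ratio was 1.75 and the adjusted p 0.00104, just above the threshold. The call also ended with either sorted replicate alone, at an adjusted p of 0.0496 with replicate 1 and 0.00835 with replicate 2. edgeR, which takes the spread between replicates into account and calls at an adjusted p below 0.05, gave a log2 fold change of 2.14 ± 0.51 (SE) and an adjusted p of 0.00159. It called 4.67% of 2569 genes tested as higher in this screen. Without sorted replicate 2 the edgeR adjusted p was 0.182, and with no filter on low counts it was 0.244.

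In the repressor screen Tada3 had 19 and 4 sorted insertions, which are 8.53 and 2.63 per 10000, so the replicates differed widely. Its unsorted libraries had 37 insertions each, 2.12 and 2.09 per 10000. Both sorted libraries were above all 6 unsorted ones, the second only by a narrow margin. Fisher's exact test gave an adjusted p of 7.41e-06, at a log2 odds ratio of 1.87 ± 0.32 (SE), and edgeR a log2 fold change of 2.41 ± 0.46 with an adjusted p of 2.82e-05. With positions found in both sorted replicates counted once, the adjusted p of Fisher's exact test was 3.41e-06. In this screen edgeR called 7.4% of the 2569 genes as higher. The call rested on replicate 1: without it the adjusted p was 0.59 by Fisher's exact test (log2 odds ratio 0.64) and 0.648 by edgeR (log2 fold change 0.81).

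In the PTGR screen, where the tag was λN and the readout the reporter mRNA, Tada3 had 10 and 8 sorted insertions. These are 1.64 and 1.37 per 10000, within the range of the unsorted libraries. Its log2 odds ratio was -0.16 ± 0.36 (SE). edgeR called 1.52% of the 2569 genes as higher in this screen and none of the members, with a log2 fold change of 0.43 for Tada3. The PTGR sorted libraries held 119540 insertions, of which 20.1 were expected at Tada3 by the background share, and 46 would have been needed for a call.

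The difference between screens was tested in the same edgeR fit. Between the activator and repressor screens the log2 fold changes of Tada3 differed by -0.27 ± 0.62 (SE), with an adjusted p of 0.902. Between the activator and PTGR screens they differed by 1.71 ± 0.68, with an adjusted p of 0.239 (0.0134 before adjustment). Neither passed the threshold, so that the PTGR result was not shown to differ from the activator result. Over all genes 8.21% and 3.93% of 2569 differed in these comparisons, and of the members none did. Of the 3 members that passed the filter of edgeR, 1 was under an unadjusted p of 0.05 in the activator and PTGR comparison and none in the other.

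**Figure D3:**
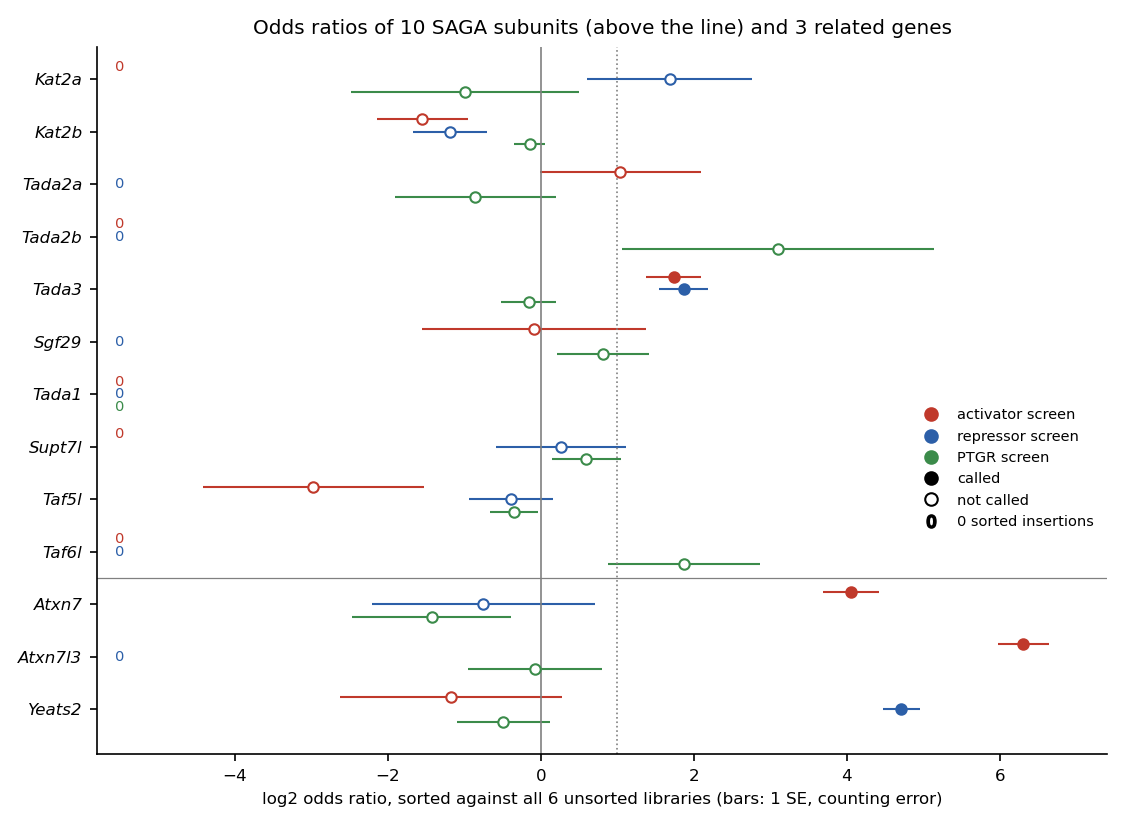
Log2 odds ratios of sorted against background insertions are shown with 1 SE (counting error) for the 10 members and, below the line, for 3 related genes, in red for the activator, blue for the repressor and green for the PTGR screen. Filled points are called, and a 0 at the left marks a gene with no sorted insertion. Among members the filled points are those of Tada3, at 1.74 and 1.87.

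The insertions behind the 2 calls of Tada3 lay elsewhere than those of unsorted cells. Of the 172 background insertions, 111 (64.5%, 95% Wilson interval 57.1 to 71.3) were over 5 kb upstream of the gene start, 103 of them between 15 and 25 kb away, and 59 were inside the gene. Of the 18 activator insertions none was that far upstream (interval 0 to 17.6%), 6 were within 5 kb of the start and 12 inside the gene. Of the 23 repressor insertions, 3 were over 5 kb upstream (13.0%, interval 4.54 to 32.1) and 18 were inside. In the PTGR screen, where Tada3 was not called, 12 of 18 were over 5 kb upstream (66.7%), much like the background. The sorted insertions of both TetR screens thus lay mostly near and inside the gene. With only insertions within 20 kb of their exon counted, the background fell to 129 and the log2 odds ratios were 1.80 and 1.71.

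**Figure D4:**
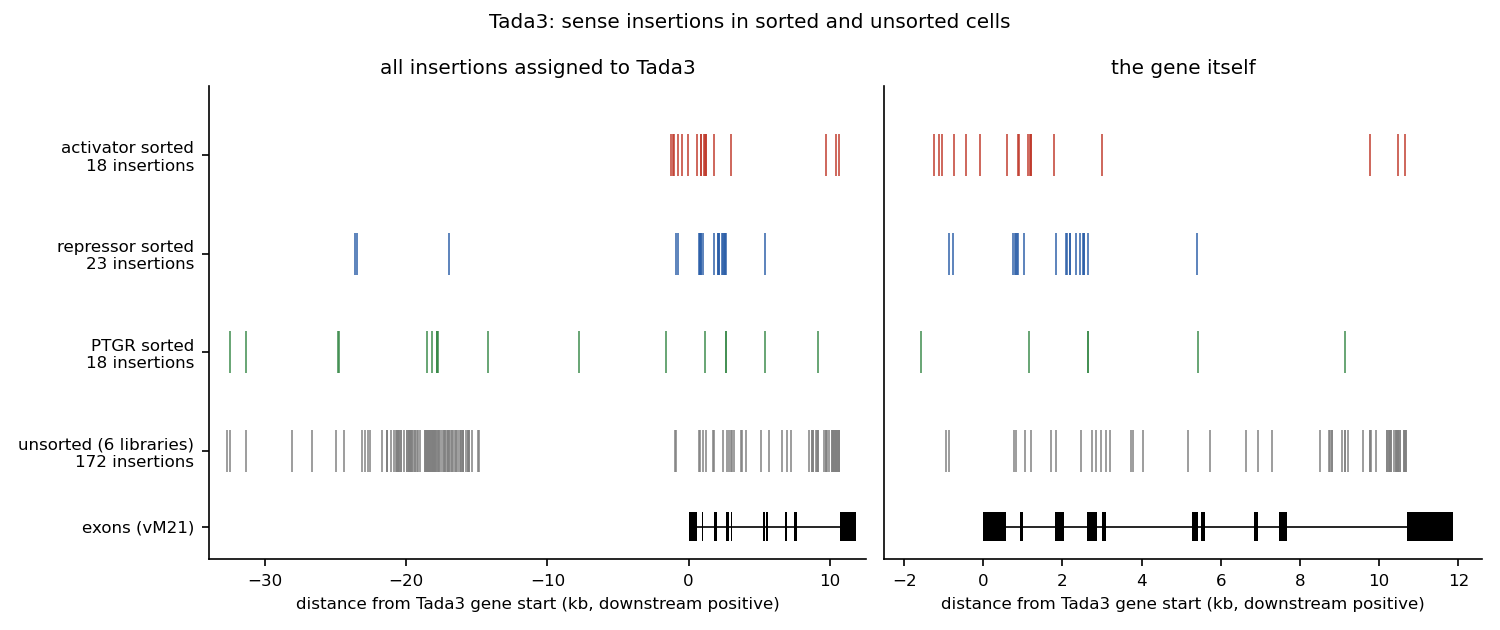
Each tick is 1 sense insertion assigned to Tada3, plotted by its distance from the annotated gene start in kb (downstream positive), over the whole range at left and over the gene at right, with the exons of GENCODE vM21 below. The unsorted ticks are dense between 15 and 25 kb upstream, where no activator tick lies, and the repressor ticks gather between 2 and 3 kb downstream.

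In the activator screen the 2 exons numbered 2 together had much the same share as in unsorted cells, but the split between them differed. Together they took 14 of the 18 insertions (77.8%, 95% Wilson interval 54.8 to 91.0) and 118 of 172 in the background (68.6%, 61.3 to 75.1). Either exon, its acceptor printed above, would put the tag before the whole protein, of 432 or 413 residues. The outer acceptor took 9 of 18, against 115 of 172 in the background. The inner acceptor took 5 of 18 (27.8%, 12.5 to 50.9), against 3 of 172 in the background (1.74%, 0.595 to 5.00). Of the 5, 1 was in replicate 1 and 4 in replicate 2. Those of replicate 2 included neighbouring positions at 1212 and 1213 bp from the gene start. The 3 background insertions were all in the repressor unsorted libraries, and the unsorted libraries of the activator screen had none of 64. A further 3 activator insertions led into exon 9, which leaves out 368 of 432 residues, all of them in replicate 1. Exon 9 took 39 of 172 in the background.

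In the repressor screen 11 of the 23 insertions led into the 2 exons numbered 2, and 10 into exon 3. The exon 3 acceptor took 2 of 172 background insertions, none of the 18 activator insertions and none of the 18 PTGR insertions. A fusion at exon 3 leaves out 69 residues. Of these 10 insertions 9 were in replicate 1 and 1 in replicate 2. The one of replicate 2, at 2556 bp from the gene start, was a position also found in replicate 1, so the 10 count it in both libraries. Another, at 1827 bp, was also in unsorted replicate 1 of that screen, and those at 2191 and 2192 bp were neighbours. In shares, exon 3 made up 43.5% of the repressor insertions (95% Wilson interval 25.6 to 63.2) and 1.16% of the background (0.319 to 4.14), and 0 of 18 in the activator screen allows up to 17.6%. Both background insertions at exon 3 were in the repressor unsorted libraries, 2 of 74 (2.70%, 0.744 to 9.33), and the other unsorted libraries had none of 98. The intervals cover counting error only. Of the 22 different repressor positions 1 was in both replicates and 2 were also found in unsorted cells of that screen. Of the 18 activator positions none was in both replicates and 1 was in the unsorted cells.

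**Figure D5:**
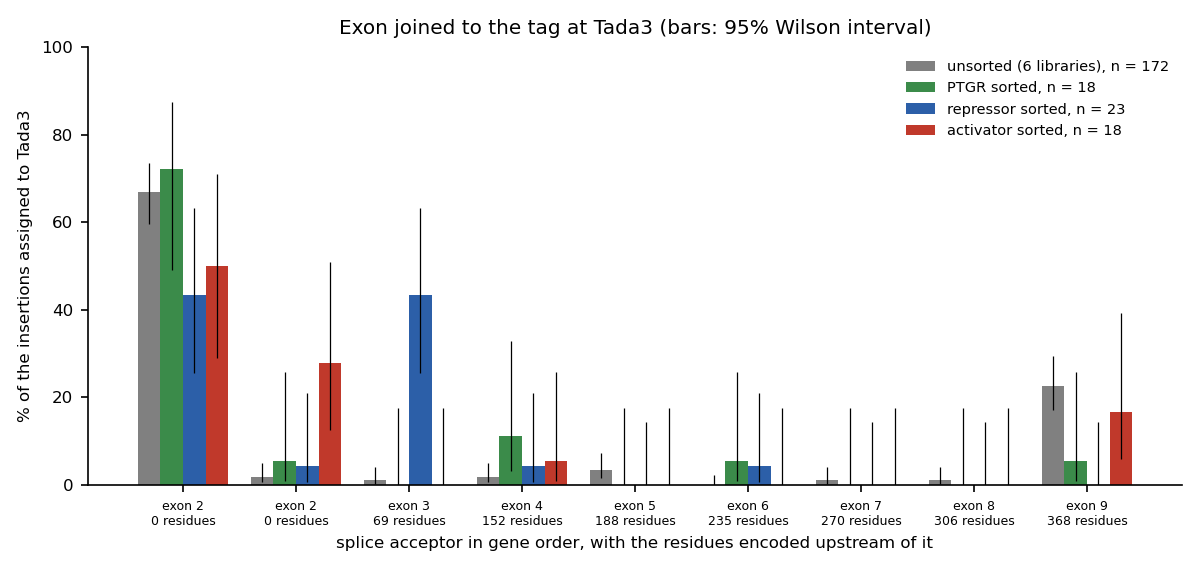
Bars give the share of the insertions at Tada3 that led into each splice acceptor, in gene order, in percent with 95% Wilson intervals. The residues encoded upstream of the exon are written below each acceptor. Exon 3 (69 residues) holds 43.5% of repressor insertions, and its share is 0% in the activator and PTGR screens.

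The remaining members of the module other than the acetyltransferases had few sorted insertions, and none was called. Tada2b, the adaptor particular to SAGA, had 1 background insertion and 1 sorted insertion, in PTGR replicate 1. Tada2a, its counterpart in ATAC, had 2 sorted insertions in activator replicate 1 and none in replicate 2, with 31 in the background. The exons they led into leave out 342 and 274 of 443 residues. The repressor libraries held none and the PTGR libraries 2. Sgf29, which reads methylated histones, had 34 background insertions and 1, 0 and 7 sorted insertions in the activator, repressor and PTGR screens. The 7 compare with 3.98 expected (adjusted p by Fisher's exact test 0.615). Both PTGR sorted libraries, at 0.492 and 0.683 per 10000, were above all 6 unsorted ones, of which the highest was 0.452. Reversed insertions at Sgf29 numbered 10 in these sorted cells and 34 in the background.

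The acetyltransferases were not called in any screen. Kat2a had 17 background insertions, none in the activator screen, 1 in each repressor library and 1 in the PTGR screen. Its repressor log2 odds ratio of 1.68 ± 1.08 (SE) rests on 1 position upstream of the gene that was found in both replicates. Kat2b, the paralog that can take its place in the complex, was the member with most insertions, and in sorted cells it had fewer than its background share. In the activator screen it had 5 and 1, 2.87 and 0.68 per 10000, and every unsorted library was higher, from 4.75 to 6.84. A total of 17.6 was expected from the background and 6 were found. In the repressor screen it had 6 and 3, with 20.5 expected, and the rates of 2.69 and 1.97 per 10000 were again below every unsorted library. In the PTGR screen the 59 insertions compared with 65.4 expected.

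The one-sided Fisher's exact test cannot call a gene lower. The two-sided test of edgeR gave Kat2b a log2 fold change of -1.20 ± 0.55 (SE) in the activator screen, with an adjusted p of 0.393, and -0.27 ± 0.51 in the repressor screen, with an adjusted p of 0.84. These values depend on scaling. When libraries were scaled by their totals in place of TMM, the fold changes were -1.84 and -1.54 with adjusted p of 0.0163 and 0.00621. That scaling moved the median of all 2569 genes from -0.24 to -0.89 in the activator screen and from -0.37 to -1.63 in the repressor screen. Set against those medians, Kat2b was lower by a similar amount under both scalings in the activator screen, and level with or slightly above the median gene in the repressor screen. All 6 activator insertions lay upstream of the gene, against 289 of 559 in the background.

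Among the core subunits, Taf5l and Taf6l are paralogs of the TFIID subunits Taf5 and Taf6, Supt7l joins the core to other modules, and Tada1 is a structural subunit. Taf5l had 250 background insertions, of which 109 lay within 5 kb of the acceptor. It had 0 and 1 insertions in the activator libraries, with 7.85 expected, 6 and 1 in the repressor libraries, with 9.16 expected, and 9 and 14 in the PTGR libraries, with 29.2 expected. Both activator rates, 0 and 0.68 per 10000, were below every unsorted library (1.77 to 3.51). The edgeR log2 fold change there was -2.29 ± 1.16 (SE), which did not pass the test (adjusted p of 0.477). In the repressor screen it was 0.23 ± 0.63.

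Supt7l had 68 background insertions, of which 65 lay upstream of the gene, and no activator insertion with 2.14 expected. The repressor libraries held 2 and 1. The PTGR libraries held 8 and 4, at a log2 odds ratio of 0.59 ± 0.45 (SE), for which Fisher's exact test gave an adjusted p of 0.611. Taf6l had 7 background insertions, and 1 and 2 in the PTGR screen gave a log2 odds ratio of 1.87 ± 1.00 with an adjusted p of 0.505. It had none in the other screens. Tada1 had none in any sorted library.

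Where a gene had 0 sorted insertions, the count allows up to 0.935 per 10000 for the activator, 0.801 for the repressor and 0.251 for the PTGR screen. Of the 10 members 5 had no activator insertion and 5 no repressor insertion, against 60.8% and 65.9% of all genes. In the PTGR screen 1 had none, against 28.8%. Few insertions would have been enough for a call at the rarely tagged genes, however. In the activator screen 4 at Tada2b, 5 at Tada1 or Taf6l, 7 at Kat2a, 8 at Tada2a, 9 at Sgf29 and 11 at Supt7l would have passed, while Taf5l needed 23 and Kat2b 38. So a measured log2 odds ratio like that of Tada3, 1.74, would have been called at Taf5l and Kat2b. It would have been missed at the 7 members with fewer insertions. These counts take in distant insertions. Only 18 of 559 background insertions at Kat2b and 109 of 250 at Taf5l lay within 5 kb of the acceptor. At Tada3 all 18 activator insertions and 61 of 172 background insertions did.

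Insertions on the opposite strand served as a second background, since a cassette that points away from a gene cannot tag it. Such a cassette can still tag another gene on its own strand. The paper states that enrichment on both strands could also mark true hits that lie close together in opposite directions. For insertions on the opposite strand the lists give the same assignment with the strand reversed. No member was called in any screen by Fisher's exact test on reversed insertions, against 3.14%, 5.61% and 0.5% of the genes tested. Only 2, 3 and 6 members had the 3 reversed insertions needed for this test in the activator, repressor and PTGR screens, and Tada3 was not among the 2. At Tada3 the background held 172 sense and 178 reversed insertions, nearly equal. Activator sorted cells held 18 sense and 1 reversed, repressor sorted cells 23 and 5, and PTGR sorted cells 18 and 12. Kat2b held 6 sense and 7 reversed in activator and 9 and 9 in repressor sorted cells, so its counts were alike on both strands.

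The rest of the complex was read from a list of 16 further SAGA genes, of which 13 were among the genes listed. The activator screen called 2 of the 4 that had enough insertions to be tested, against 4.64% of all genes tested. None of 1 tested was called in the repressor screen (8.18% of all genes) and none of 9 in the PTGR screen (0.666%). They belong to the deubiquitinase module. Atxn7l3, which the deubiquitinase Usp22 needs for activity, had 34 and 33 activator insertions, 19.5 and 22.4 per 10000, against 27 in the whole background (log2 odds ratio 6.31 ± 0.33, SE). All but 1 of these insertions led into the exon 2 acceptor printed above, before the start codon. They lay at 62 different positions, of which 5 were in both replicates and 7 also in unsorted cells of that screen. Atxn7, which anchors that module to SAGA, had 12 and 12 against 46 in the background (4.06 ± 0.36). Of its 24 insertions 23 were assigned to the exon 3 acceptor, which took 1 of 46 in the background and again precedes the start codon. edgeR gave both a higher log2 fold change in the activator than in the PTGR screen (adjusted p of 0.00383 for Atxn7l3 and 0.00029 for Atxn7). For Atxn7l3 this ended without PTGR unsorted replicate 1, at an adjusted p of 0.497. Between the activator and repressor screens Atxn7 did not pass (adjusted p of 0.0986). Usp22 itself had 2 activator insertions with 97 in the background, Eny2 1, Atxn7l1 9 and Atxn7l2 0, and none was called. The log2 odds ratio of Tada3 in this screen, 1.74, was below both.

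ATAC shares Tada3, Sgf29 and the acetyltransferases with SAGA, and 6 genes for ATAC subunits outside SAGA were examined. Yeats2, a reader of acylated histones, was the only one tested in the repressor screen and was called there, where 8.18% of all genes tested were. In the other screens none of 1 and none of 6 tested were called. It had 40 and 29 repressor insertions, 18.0 and 19.1 per 10000, against 72 in the background (log2 odds ratio 4.71 ± 0.24, SE), and a single activator insertion. The 69 repressor insertions lay at 61 different positions, of which 8 were in both replicates and 8 also in unsorted cells of that screen. Of the 69, 49 led into exon 13, which leaves out 550 of 1407 residues, and 32 of 72 did so in the background. Thus Tada3 was called in the screen that called the deubiquitinase genes and in the screen that called Yeats2. The TFIID paralogs Taf5 and Taf6 had 1 or no sense insertion in the activator and repressor screens. Taf5 had 70 reversed insertions in the repressor screen against 44 in the background (log2 odds ratio 5.70 ± 0.28), on the strand that is not spliced to it.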

How the data were processed

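The authors trimmed reads with Trim Galore (0.6.0), used Bowtie2 for alignment to mm10 and SAMtools (1.9) to filter out duplicates and poorly mapped reads, and gave every insertion the closest exon downstream, first exons excepted, among protein-coding GENCODE transcripts. They deposited 24 lists of insertion positions without read numbers, and 3 tables with insertion counts per gene over summed libraries, whose odds ratios and adjusted p-values were not used. The deposited counts served for comparison: own counts were equal at 20407, 20400 and 16180 of 20409 genes in the activator, repressor and PTGR screens.

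Each position was counted once per library, within 200 kb of its exon. Fisher's exact test was run over all genes (SciPy 1.17.1), with adjustment by Benjamini-Hochberg. edgeR (4.0.16, quasi-likelihood, TMM) fitted all 12 libraries and compared sorted with unsorted libraries of the same screen. It kept Tada3, Kat2b and Taf5l of the members. The SE given for edgeR values is the absolute log2 fold change divided by the square root of the F statistic of its test. It is approximate, above all for fold changes close to 0. DESeq2 (1.42.0) was an alternative. Scripts were tested on simulated data. Exon coordinates came from GENCODE vM21, and the authors' release was not used here. A count of 0 was taken to allow 3 counts, and Wilson intervals cover counting error only.

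All 10 members are described in every screen. From the other lists, genes called by Fisher's exact test are named, with the deubiquitinase genes and both TFIID paralogs. The members and lists were chosen with earlier results of these data known.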

Additional observations from a re-analysis of the deposited data

Results flagged for a closer look

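At Sgf29 PTGR unsorted replicate 2, the smallest unsorted library with 54088 insertions in all, had no insertion. The other 5 unsorted libraries lay between 0.285 and 0.452 per 10000, a gap of 0.63 of the whole range. At Tada2b that ratio was 1, which a single background insertion (in repressor unsorted replicate 2) gives by construction. The shares of 13 genes were examined in this way, and chance marks about 1 group in 20.

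No member differed between screens in the edgeR test of the difference. Outside the members, 3 related genes did. Atxn7l3 was higher in the activator than in the repressor screen (adjusted p of 0.00263) and than in the PTGR screen (0.00383). Without repressor unsorted replicate 2 the former was 0.139, and without PTGR unsorted replicate 1 the latter was 0.497. Atxn7 was higher in the activator than in the PTGR screen (0.00029), and its difference between the activator and repressor screens did not pass (0.0986). Yeats2 was lower in the activator than in the repressor screen (5.78e-07). Atxn7l3 had no sorted insertion in the repressor screen, so no size is given for that difference.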

How the results depend on the processing

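The number of members called kept its value in 117 of 128 recalculations, which include those of results with no member called. In the activator screen Tada3 lost its call in 6 of 18 recalculations of Fisher's exact test and 3 of 12 of edgeR. In the repressor screen it did so in 1 of 18 and 1 of 12. In the activator screen the call of Tada3 by Fisher's exact test was lost, leaving 0 members, with the background of the same screen, with genes of at least 1 sorted insertion tested, and with a maximum distance of 50 kb (adjusted p 0.00104, 0.00152 and 0.00141). Leaving out single libraries gave 0 to 1 in both the activator and the repressor screen. The libraries that ended the call were either activator sorted replicate or PTGR unsorted replicate 1 (adjusted p 0.00229) in the activator screen, and repressor sorted replicate 1 in the repressor screen. The edgeR count was 0 in the activator screen at an adjusted p below 0.001 and with no filter on low counts, and leaving out libraries gave 0 to 1 in both screens. The cause was not tested.

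With the replicate number as a block, Tada3 had log2 fold changes of 2.18 and 2.36 in the activator and repressor screens, and no call of a member changed. Deviations of same-numbered sorted and unsorted libraries correlated at 0.0748, -0.0117 and 0.279 in the activator, repressor and PTGR screens over 2569 genes. Positions pointed to a pairing in 2 screens: activator sorted replicate 2 shared 19.2% of its positions with unsorted replicate 2 and 1.39% with unsorted replicate 1, and PTGR sorted replicate 1 shared 19.5% with unsorted replicate 1 and 0.397% with unsorted replicate 2. In the repressor screen sorted replicate 1 shared 8.50% and 10.0% with unsorted replicates 1 and 2. The labels do not say which unsorted library belongs to which sorted one, and the pairing is a hint from the data. DESeq2 called Tada3 in the same 2 screens. Counting positions of both sorted replicates once, an alternative chosen after seeing the data, changed no call of a member.

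No called value changed sign. Values not called did in the following cases, with ranges over the left-out libraries. The log2 odds ratio of Supt7l in the repressor screen was -0.15 with shared positions counted once (-0.016 to 0.43 over left-out libraries), that of Taf5l there ran from -1.90 to 0.14, and that of Tada3 in the PTGR screen was 0.35 with its own background. In edgeR, Taf5l in the repressor screen gave -1.05 with library totals, -0.62 with no filter and -1.65 to 0.82 over left-out libraries, where leaving out unsorted replicate 1 gave -0.02. In the PTGR screen the ranges were -0.75 to 0.0028 for Taf5l, -0.35 to 0.059 for Kat2b and -0.31 to 0.72 for Tada3. The difference of Tada3 between the activator and repressor screens was 0.36 with library totals and -0.96 to 1.18 over left-out libraries, with 0.18 without activator sorted replicate 1. The 3 sorted insertions needed for a test were reached by 2 to 6 members per screen.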
